A study of Tupaia belangeri chinensis with 36 samples.

Results

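Poly(A) RNA-seq of the testis was compared with that of the caput, the head of the epididymis, in sexually mature male tree shrews (Tupaia belangeri chinensis) of 1.5 to 2 years, collected in the reproductive season in mid-April 2024. The members were 6 libraries of the 36 samples of the series, 3 of the testis (TESTIS-R) and 3 of the caput (CAPUT-R), chosen by tissue and season as the labels give them. Both groups share species, sex, age range, season and collection time, and both are whole tissue. The libraries TESTIS-NR and CAPUT-NR (3 each, non-reproductive season, mid-December 2023) and CAUDA-R and CAUDA-NR (the tail of the epididymis, 3 each) were used only where stated. Replicates were biological per the series' design text, but nothing in the labels ties a testis library to a caput library of the same animal. The table held 27777 genes, of which 4552 had 0 counts in all 6 libraries and 18254 passed the filter on low counts and were tested.

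The testis produces sperm in its seminiferous tubules, where germ cells divide, pass through meiosis and are reshaped into spermatozoa beside supporting Sertoli cells. Sperm then enter the caput, a coiled duct whose epithelium takes up testicular fluid and secretes proteins that coat and modify the sperm. A caput sample of whole tissue holds both the duct wall and the contents of its lumen.

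Genes carry identifiers of a tree shrew database, and 0 of 27777 matched the reference table of gene symbols. The deposited file does not pair them with names, so only identifiers can be printed (2 a direction), without roles or sequences, and the tissue labels could not be checked against marker genes. The libraries grouped by their labels. Spearman rank correlations over the 18254 genes were 0.976 to 0.982 among TESTIS-R, 0.911 to 0.957 among CAPUT-R and 0.479 to 0.665 between the tissues. Total counts were 33779775 to 37174187 in TESTIS-R and 26758206 to 32494750 in CAPUT-R. The biological coefficient of variation, the replicate spread beyond counting error, was 0.309 in TESTIS-R and 0.585 in CAPUT-R. Levels are CPM, counts of a gene scaled to a common library size with TMM factors over all 18 RNA-seq libraries. They are not divided by gene length, so they compare a gene between libraries and not one gene with another.

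The caput libraries differed in their level of transcripts that were high in testis, which moves with several results given here. To measure it without using a caput library, 299 genes were taken that averaged at least 50 CPM in TESTIS-R and stayed under 1 CPM in each of the 6 cauda libraries. They took 2.98% to 3.02% of the counts of the TESTIS-R libraries. In the caput they took 0.0506% in CAPUT-R 1, 0.0281% in CAPUT-R 2 and 0.249% in CAPUT-R 3. Gene by gene, the level in CAPUT-R 3 was 6.54% of the TESTIS-R mean as a median, with quartiles of 5.42% and 7.33%, and 294 of the 299 genes had a count. In CAPUT-R 1 the median was 0.886% (quartiles 0.535% and 1.21%), with 285 genes counted. In CAPUT-R 2 it was 0.0614% (quartiles 0% and 0.304%), with 160 genes counted. CAPUT-R 3 therefore held these transcripts at a nearly constant share of their testis level, and CAPUT-R 2 held about as little as CAPUT-NR 1 (median 0.166%). CAPUT-NR 2 had a median of 0% and CAPUT-NR 3 one of 1.80%. In bulk tissue, more cells of a type and more RNA per cell cannot be told apart, and the source of these transcripts was not tested.

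**Figure D1:**
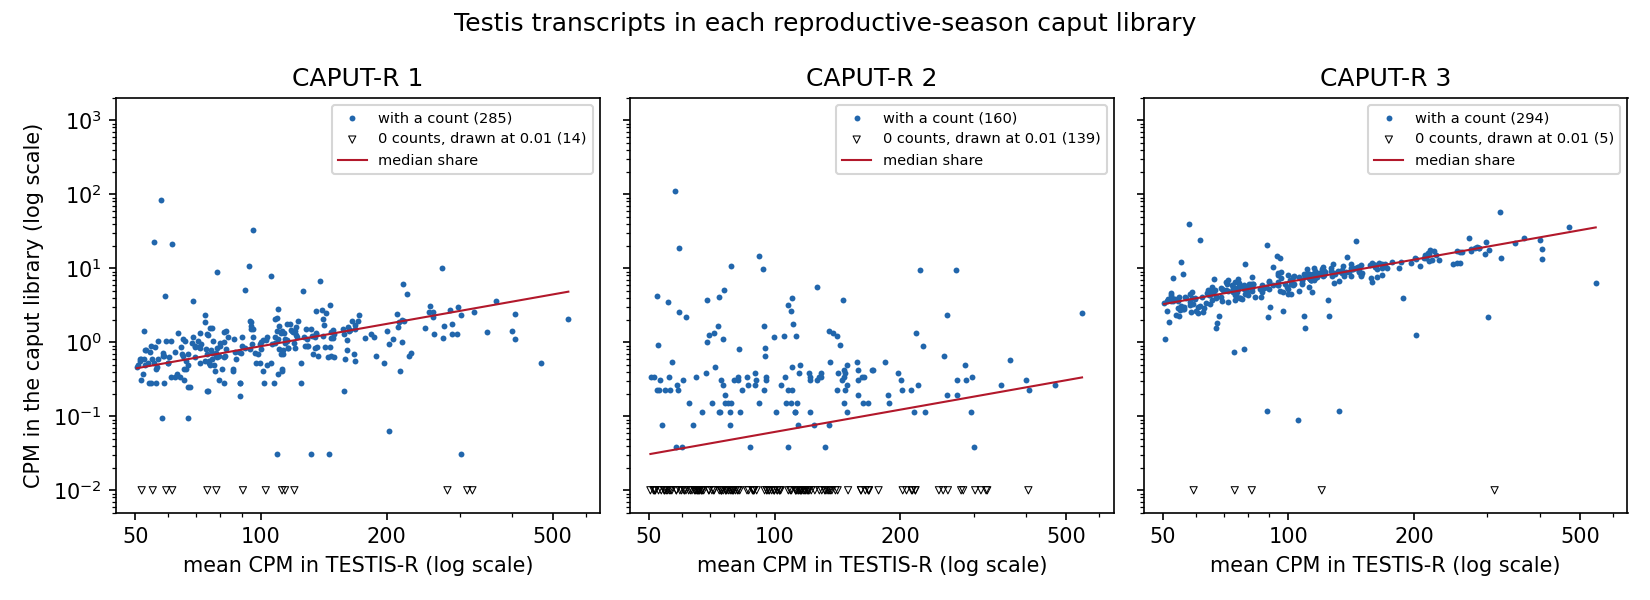
Level of each of the 299 testis genes in a caput library (y axis, CPM, log scale) against its mean level in TESTIS-R (x axis, CPM, log scale), 1 point a gene and 1 panel a library. The red line is the median share of the testis level (0.886% in CAPUT-R 1, 0.0614% in CAPUT-R 2, 6.54% in CAPUT-R 3), and open triangles are genes with 0 counts, drawn at 0.01. In CAPUT-R 3 most points follow the line, in CAPUT-R 1 they scatter around it, and in CAPUT-R 2 only 160 genes have a count.

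Transcripts that were high in caput were also followed in the testis. A set of 38 genes averaging at least 50 CPM in CAPUT-R and under 1 CPM in each TESTIS-NR library took 0.00333%, 0.000971% and 0.00175% of the counts of TESTIS-R 1, 2 and 3. In CAPUT-R 1, 2 and 3 it took 1.08%, 1.61% and 0.841%. Its median level was 0.356% of the CAPUT-R mean in TESTIS-R 1, 0% in TESTIS-R 2 and 0.0258% in TESTIS-R 3. Genes at 1 CPM or more in a testis library of the other season were left out of this set. A low level in TESTIS-R was therefore partly built in. The testis set was chosen without a caput library, so the sets are not alike. Whether caput transcripts were scarcer in testis than testis transcripts in caput was not tested.

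The comparison asked which genes differ between the organ that makes sperm and the duct that receives them. Of the 18254 genes tested, 13294 were called at a Benjamini-Hochberg adjusted p under 0.05 by edgeR's quasi-likelihood test, 72.8% of those tested. Of these, 6515 were higher in testis (35.7%) and 6779 lower (37.1%). The median change of the called genes was 2.74 on the log2 scale among those higher in testis and -2.22 among those lower. The TESTIS-R and CAPUT-R values of 14843 genes did not overlap, 81.3% of those tested, and these included 99.4% of the called genes. The median change over all genes tested was -0.07 with TMM scaling, 0.06 with DESeq2 size factors and -0.30 with library totals. DESeq2 called 14376 genes.

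The other 4960 genes were not called, and a missed threshold does not make them equal between the tissues. The 95% interval of the log2 change lay within -1 and 1 for 1664 of them. A fitted change of at least 1 in size was found in 1255 of the genes not called. Its error was too wide for a call, and replicate spread and low counts were not separated as reasons.

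Large changes were common in both directions. Called genes with a log2 change of at least 1 numbered 5672 higher in testis (31.1%) and 5848 lower (32.0%), and at least 3 they numbered 2995 (16.4%) and 2311 (12.7%). At a change of at least 5 there were 1040 higher (5.70%) and 960 lower (5.26%), and at 8 or more 173 higher (0.948%) and 322 lower (1.76%). Genes with 0 counts in all 3 libraries of the lower tissue made up 159 of the 173 and 211 of the 322, and their fitted change depends on the constant added to counts. With such genes set to the smallest change that a floor of 3 counts over the lower group allows, 28 genes were at least 8 higher and 158 at least 8 lower in testis.

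The changes toward the testis piled up at one size. Among genes with a TESTIS-R mean of at least 20 CPM, 810 had a log2 change from 4.5 to 5.5, and 101 had a larger one. In the other direction there was no such step: of genes averaging at least 20 CPM in CAPUT-R, 167 were lower in testis by 4.5 to 5.5 and 357 by more. Without CAPUT-R 3 the genes with a change of 4.5 to 5.5 toward the testis numbered 298 and those above it 963. Leaving out CAPUT-R 1 gave 770 and 87, and leaving out CAPUT-R 2 gave 597 and 62. Of the bands of 1 log2 unit from 3.5 upward, the fullest was 4.5 to 5.5 with all libraries, where the band of 3.5 to 4.5 held 536 genes. It was 3.5 to 4.5 without CAPUT-R 2, with 742 genes, and 4.5 to 5.5 without CAPUT-R 1. Without CAPUT-R 3 the bands of 3.5 to 4.5 and of 6.5 to 7.5 held 408 and 362 genes. The size at which the changes piled up moved when CAPUT-R 2 or CAPUT-R 3 was left out. These had the lowest and the highest share of testis transcripts, so for such genes a shift of the fitted change was built in. The shift is no result beyond those shares, and the cause of the pile-up was not tested. The 960 genes lower in testis by at least 5 became 1034 without CAPUT-R 3, while the 1040 genes higher in testis became 2191.

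**Figure D2:**
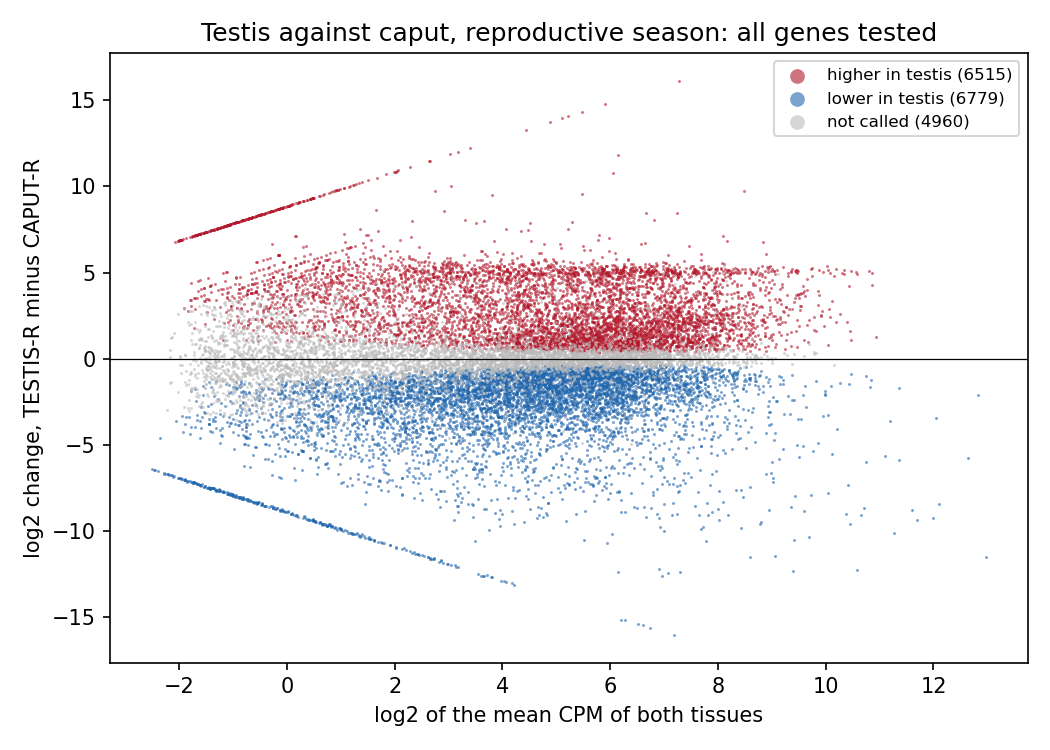
Log2 change between TESTIS-R and CAPUT-R (y axis) against the log2 mean CPM of both tissues (x axis), 1 point for each of the 18254 genes tested. Red points are the 6515 genes called higher in testis, blue points the 6779 called lower and grey points the 4960 not called. Red points gather in a band near 5, where 810 genes of at least 20 CPM in TESTIS-R lie between 4.5 and 5.5, and the straight lines at the outer edges are genes with 0 counts in 1 of the tissues.

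The 299 testis genes, chosen on their TESTIS-R level, moved in the same way. Of the 298 that passed the filter, 287 were called higher in testis, where 35.7% of all genes tested were. Because the genes were chosen for a high TESTIS-R level, nothing is read from that count. How it and the median change moved with the caput libraries is given as a description. Leaving out a library with more of these transcripts raises the fitted change by arithmetic. The median change was 5.10, and that of all genes -0.07. Without CAPUT-R 3 the median was 7.54, and 294 of 299 were called higher and 1 lower. Without CAPUT-R 1 the median was 4.94 and 166 were called, and without CAPUT-R 2 it was 4.67 and 289 were called. The 2 caput libraries left in the fit without CAPUT-R 1 were the ones with the lowest and the highest share of these transcripts.

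Few genes were present in one tissue and without a count in the other. Testis-restricted genes, with a mean of at least 1 CPM in TESTIS-R and 0 counts in all 3 CAPUT-R libraries, numbered 217. Of these 175 passed the filter and 17 reached 10 CPM. A count of 0 allows up to 0.0327 CPM over the CAPUT-R group, counting error only. Without CAPUT-R 3 the testis-restricted genes numbered 632, of which 415 had a count in CAPUT-R 3. Without CAPUT-R 1 there were 274 and without CAPUT-R 2 260. Of the 8251 genes averaging at least 20 CPM in TESTIS-R, 82 had 0 counts in CAPUT-R 1, 374 in CAPUT-R 2 and 20 in CAPUT-R 3, and 10 had 0 in all of them. Of the 8254 genes averaging at least 20 CPM in CAPUT-R, 23 had 0 counts in all TESTIS-R libraries. Nearly every gene with a substantial level in either tissue was therefore counted in some library of the other.

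Caput-restricted genes, with a mean of at least 1 CPM in CAPUT-R and 0 counts in all 3 TESTIS-R libraries, numbered 257. Of these 217 passed the filter and 54 reached 10 CPM. A count of 0 allows up to 0.0351 CPM over the TESTIS-R group. Leaving out 1 library of either tissue gave 249 to 381 such genes. Of the 257, 203 averaged at least 1 CPM in CAPUT-NR, 130 in CAUDA-R and 15 in TESTIS-NR. Of the 217 testis-restricted genes, 109 averaged at least 1 CPM in TESTIS-NR, 13 in CAPUT-NR and 10 in CAUDA-R. Those NR and cauda libraries were not used to choose the genes.

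Among called genes without overlap and with at least 20 CPM in testis, TSDBGID.16898 had the largest fitted change toward the testis. It had 251.5, 305.2 and 380.0 CPM in TESTIS-R 1, 2 and 3, and 0 counts in each CAPUT-R library. The groups did not overlap. Set against a floor of 3 counts over the CAPUT-R group, the TESTIS-R mean of 312 ± 64.5 CPM (SD, n = 3) was at least 9551-fold higher (edgeR adjusted p 0.000195). The bound was 6059 without CAPUT-R 3 and 6213 without CAPUT-R 1. At the median share found in CAPUT-R 3 this gene would have had 20.4 CPM there, and it was 1 of the 5 genes of the 299 with 0 counts in that library. In the non-reproductive season it had 173.4, 100.1 and 108.6 CPM in TESTIS-NR 1, 2 and 3, and 0, 0 and 86.6 CPM in CAPUT-NR 1, 2 and 3. CAPUT-NR 3 was thus the single caput library with this transcript, and all 6 cauda libraries had 0 counts.

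On average over TESTIS-R, TSDBGID.26965 took the most counts among genes that were higher in testis. It had 3661, 3602 and 3635 CPM in TESTIS-R 1, 2 and 3, and 36.95, 4.93 and 255.6 CPM in CAPUT-R 1, 2 and 3. The testis libraries were alike, while the caput libraries kept the order of their testis transcript shares. The log2 change was 4.99 (SE 1.50, edgeR adjusted p 0.0253), and the ratio of means was 36.6. Without CAPUT-R 3 the ratio was 173 and the log2 change 7.39, and without CAPUT-R 1 the call was lost (adjusted p 0.0623). Cauda levels in the same season averaged 7.24 ± 4.61 CPM (SD, n = 3).

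In the other direction, TSDBGID.26618 had the largest fitted change among called genes without overlap and with at least 20 CPM in caput. That ranking depends on the constant added to counts. Another gene with 0 counts in TESTIS-R had a higher CAPUT-R mean, 304 CPM. TSDBGID.26618 had 0 counts in each TESTIS-R library and 63.4, 652 and 159.3 CPM in CAPUT-R 1, 2 and 3. The groups did not overlap, although the caput libraries differed widely from each other, and the CAPUT-R mean was 292 ± 316 CPM (SD, n = 3). The gene was at least 8316-fold lower in testis (edgeR adjusted p 0.00351), with a bound of 3176 without CAPUT-R 2 and 5426 without TESTIS-R 2. All 3 TESTIS-NR libraries also had 0 counts, where CAPUT-NR had 39.4, 25.25 and 75.6 CPM. It was not detected in CAUDA-R, with 0 counts in all 3 libraries.

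On average over CAPUT-R, TSDBGID.21811 took more counts than any other gene, though not in CAPUT-R 3 alone. It had 9.94, 4.04 and 2.87 CPM in TESTIS-R 1, 2 and 3, and 13270, 26620 and 8291 CPM in CAPUT-R 1, 2 and 3. It alone made up 1.53% of all CAPUT-R counts. In CAPUT-R 3 it had 278146 of 32119635 counts, below the 1.22% held by the top gene of that library. The log2 change was -11.50 (SE 0.99, edgeR adjusted p 0.000347), a 2860-fold lower mean in testis that became 4650-fold without TESTIS-R 1. In the other season the libraries had 2.72 to 5.36 CPM in TESTIS-NR and 1743 and 1244 CPM in CAPUT-NR 1 and 2, with 7534 CPM in CAPUT-NR 3. The cauda level was 29.1 ± 6.95 CPM in CAUDA-R (SD, n = 3), so along the duct the transcript was found mostly in the head.

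The few genes with the most counts held a smaller share of the library in the testis than in the caput. The 10 genes with the most counts held 2.44%, 2.41% and 2.52% of TESTIS-R 1, 2 and 3, and 8.95%, 10.02% and 8.11% of CAPUT-R 1, 2 and 3. The groups did not overlap, with means of 2.46% ± 0.0541 and 9.03% ± 0.957 (SD, n = 3 each). The exact permutation p was 0.1 (two-sided), which 3 against 3 libraries cannot go below, and 0.2 after adjustment over the 2 values tested per library. The 100 genes with the most counts held 13.0% to 13.3% in TESTIS-R and 20.8% to 23.4% in CAPUT-R. Further down the lists the gap narrowed, and the order then turned round. The number of genes that together held 50% of the counts was 1146, 1127 and 1111 in TESTIS-R 1, 2 and 3, and 974, 944 and 1117 in CAPUT-R 1, 2 and 3, where CAPUT-R 3 overlapped the testis. The first 2668 genes held 71.2% to 71.8% in TESTIS-R and 68.5% to 70.9% in CAPUT-R, the opposite order.

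**Figure D3:**
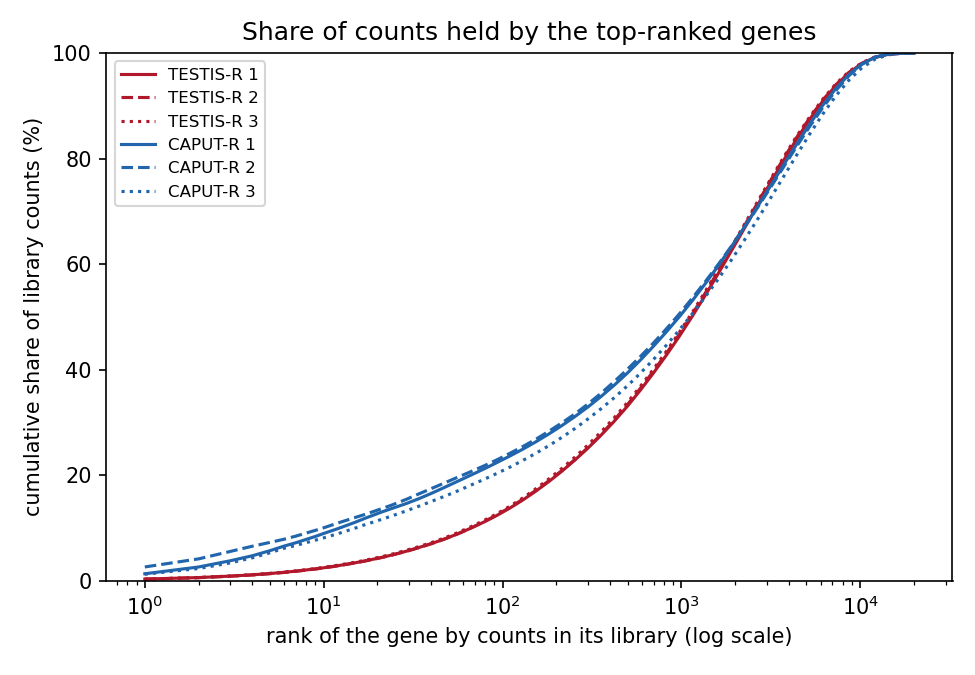
Cumulative share of library counts (y axis, percent) held by genes ranked by their counts in that library (x axis, log scale), 1 line a library. The 3 red testis lines lie on each other and start lower than the 3 blue caput lines. They reach 2.41% to 2.52% in TESTIS-R and 8.11% to 10.02% in CAPUT-R at rank 10, and 71.2% to 71.8% in TESTIS-R and 68.5% to 70.9% in CAPUT-R at rank 2668, past the crossing of the lines.

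The genes at the head of each list differed in how steady they were. Among the 10 genes with the highest mean in TESTIS-R, the highest of the 3 libraries exceeded the lowest by 1.02 to 1.13 times. Among the 10 of CAPUT-R it did so by 1.13 to 4.61 times. All 10 of the caput were called lower in testis, with log2 changes of -11.50 to -2.09. Of the 10 of the testis, 9 were called higher there and 1 lower. That 1 gene stood in both lists, with means of 2823 ± 107 CPM in TESTIS-R and 11629 ± 3528 CPM in CAPUT-R (SD, n = 3 each, log2 change -2.09, edgeR adjusted p 0.00246).

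The number of genes detected did not separate the tissues. Genes with at least 1 CPM numbered 15503, 15501 and 15333 in TESTIS-R 1, 2 and 3, and 14954, 14873 and 15614 in CAPUT-R 1, 2 and 3. CAPUT-R 3 lay above every testis library and the other caput libraries below them. The means were 15446 ± 97.6 in TESTIS-R and 15147 ± 406 in CAPUT-R (SD, n = 3 each, two-sided exact permutation p = 0.4, adjusted p 0.4). At a limit of 10 CPM the difference turned round, to -83.7 genes.

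Replicates of the caput departed from each other more than those of the testis. Genes with at least 5 CPM in 1 library and at least 4 times the level of both others of its tissue numbered 43, 75 and 50 in TESTIS-R 1, 2 and 3, and 39, 199 and 544 in CAPUT-R 1, 2 and 3. Of the 544 in CAPUT-R 3, 522 had a TESTIS-R mean above their level in that library. Of the 199 in CAPUT-R 2, 10 did. CAPUT-R 2 also had 240 genes that were low in it alone, and CAPUT-R 1 and CAPUT-R 3 had 60 each. CAPUT-R 2 and CAPUT-R 3 thus had the most genes high in 1 library alone. By the rule a gene cannot be high alone in 2 libraries, so nothing is read from their sets being different. Of the 544, 534 were tested, 482 were called higher in testis, and 51 were not called. Of all genes tested, 35.7% were called higher in testis. Without CAPUT-R 3, 521 of the 534 were called higher. The genes were chosen for a high level in CAPUT-R 3, so a rise without that library was built in and nothing is read from it.

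The genes that differed most kept to their tissue in libraries outside the comparison, with exceptions by library. The 1040 genes at least 5 higher in testis took 10.8% of the counts of each TESTIS-R library, and 0.111%, 0.0244% and 0.807% in CAPUT-R 1, 2 and 3. In the non-reproductive season they took 3.25%, 1.62% and 10.97% in TESTIS-NR 1, 2 and 3, and 0.0555%, 0.0293% and 0.280% in CAPUT-NR 1, 2 and 3. TESTIS-NR 3 had the share of a TESTIS-R library, and TESTIS-NR 1 and 2 had less. The cauda libraries of both seasons had 0.0310% to 0.101%.

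The 960 genes at least 5 lower in testis took 0.147%, 0.126% and 0.102% of the counts of TESTIS-R 1, 2 and 3, and 18.8%, 19.1% and 16.2% in CAPUT-R 1, 2 and 3. In TESTIS-NR they took 0.761%, 0.644% and 0.126%, and in CAPUT-NR 12.9%, 12.1% and 17.9%. The cauda libraries had 9.34% to 13.0%. Gene by gene, 667 of the 960 averaged at least 1 CPM in CAUDA-R (69.5%), 385 lay within 2-fold of their CAPUT-R mean, 141 were more than 2-fold above it, and 174 were under 1 in 32 of it. Of the 1040 testis genes, 100 averaged at least 1 CPM in CAUDA-R (9.62%). Much of what was lower in testis was thus counted in both segments of the duct.

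**Figure D4:**
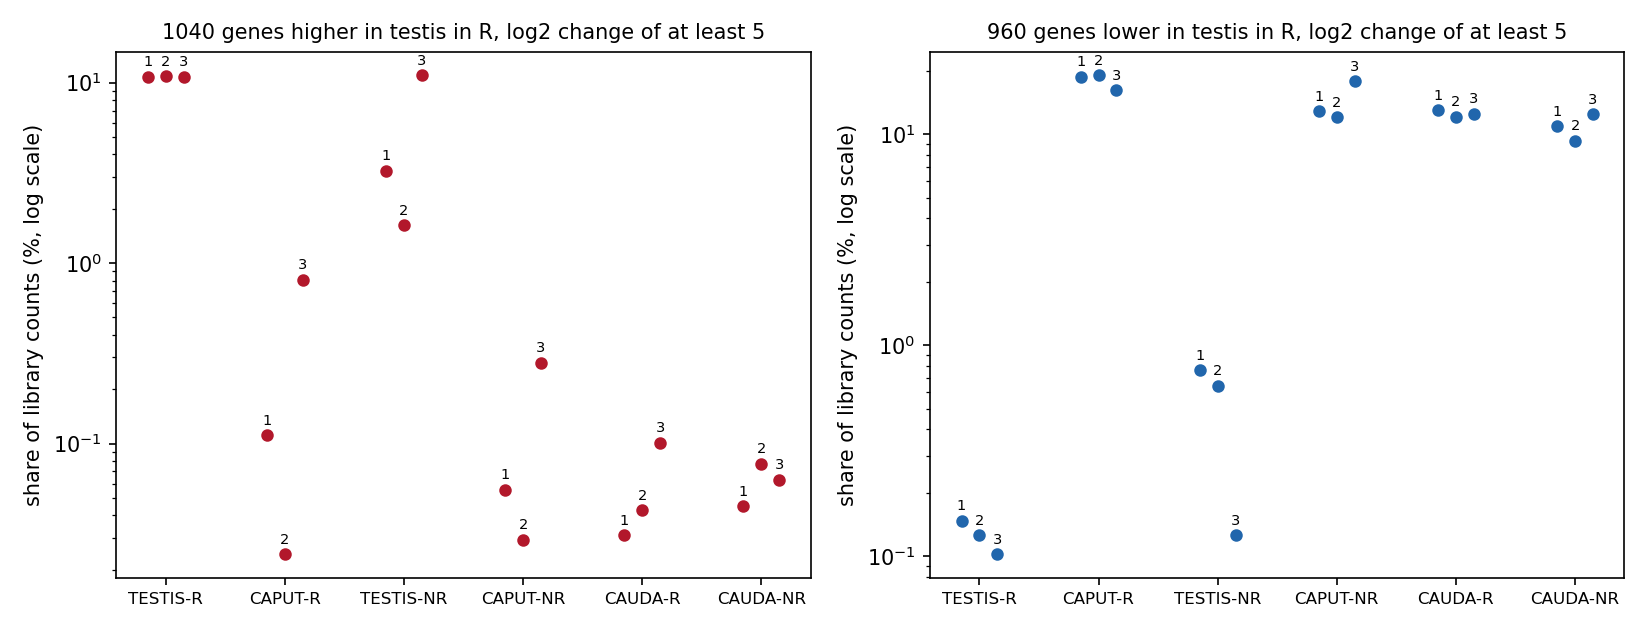
Share of library counts (y axis, percent, log scale) held by the 1040 genes at least 5 higher (left) and the 960 genes at least 5 lower (right) in testis on the log2 scale, 1 point a library with its replicate number. TESTIS-R and CAPUT-R chose the genes, and the other 4 groups did not. The left panel shows CAPUT-R 3 at 0.807% against 0.0244% in CAPUT-R 2, and TESTIS-NR 3 at 10.97% against 1.62% in TESTIS-NR 2.

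The same comparison in the non-reproductive season rests on 6 other libraries. There, 6011 of 17914 genes were called by edgeR (33.6%), 3131 higher in testis (17.5%) and 2880 lower (16.1%). Of the 17366 genes tested in both seasons, 12651 were called in R and 5884 in NR, and 5375 were called in both in the same direction. That is 42.5% of the R calls and 91.3% of the NR calls. Over all genes tested in each season, 72.8% were called in R and 33.6% in NR, in either direction. Opposite calls were made for 12 genes. Across the 17366 genes the log2 changes of the seasons had a Pearson r of 0.881, a description over genes, which are not independent replicates. The genes called in R had a median absolute change of 2.31 in R and 1.62 in NR. The NR count moved with most single libraries: it was 1704 without CAPUT-NR 1, 1972 without CAPUT-NR 2 and 3214 without CAPUT-NR 3. It was 3931 without TESTIS-NR 1, 6097 without TESTIS-NR 2 and 7828 without TESTIS-NR 3.

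**Figure D5:**
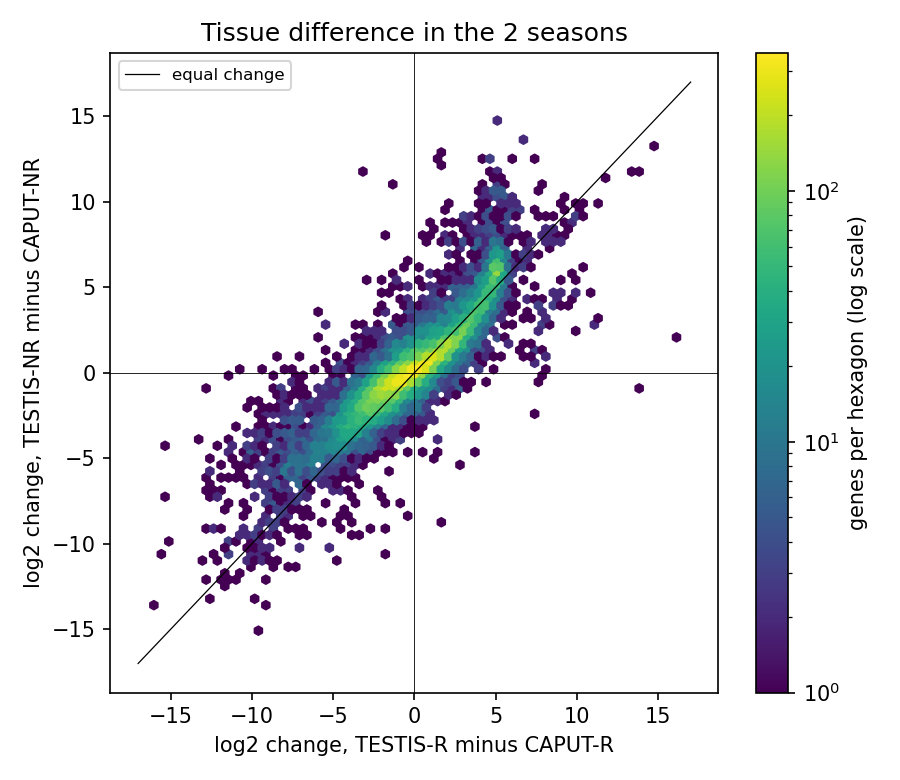
Log2 change of testis against caput in the non-reproductive season (y axis) and in the reproductive season (x axis), with colour for the number of the 17366 genes in each hexagon (log scale). Points follow the line of equal change with a Pearson r of 0.881. Near 5 on the x axis a column of genes rises above the line, the same change at which 810 testis genes gathered in R.

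Whether the tissue difference itself depended on season was tested as an interaction over 12 libraries. edgeR called 0 of 19386 genes (0%), while 3173 had a raw p under 0.05 (563 positive and 2610 negative). The DESeq2 count was 471. Leaving out TESTIS-NR 3, the library with the transcript shares of a TESTIS-R library, gave 5771 edgeR calls, 2028 positive and 3743 negative. Without CAPUT-NR 3 as well edgeR called 5349, and without CAPUT-R 3, CAPUT-NR 3 and TESTIS-NR 3 together it called 5290, 2411 positive and 2879 negative. A positive value means a larger testis minus caput difference in R. None of the 4 named genes was called in this test (adjusted p 0.272 to 1.00). Season and collection date cannot be told apart.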

How the data were processed

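The authors deposited raw counts per gene, 1 column a library, made from poly(A) RNA of integrity number at least 7 and read in pairs of 150 nt, per the labels' protocols and design text. Tools listed in the submitters' processing notes were bedtools and featureCounts, while aligner, genome build and strand setting were not given in the sources used here. Of the deposited tables, the 3 small RNA tables were not used. Testis minus caput was fitted by edgeR's quasi-likelihood test (version 4.0.16, R 4.3.3), with TMM scaling and the default filter within the libraries compared, and calls were made at an adjusted p under 0.05. DESeq2 1.42.0 was an alternative. SE is the log2 change over the root of the F value. The fits were tested on simulated data in which few genes changed. Most genes were called in the comparison of R, a setting that the simulation does not cover. No 2 replicates agreed within sampling noise. Depth was 26703225 to 37174187 counts a library, and intervals and floors of 3 counts cover counting error only. Levels and fits are scaled separately, so ratios of means differ slightly from fitted changes.

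Named genes were, per direction, among called genes without overlap, the largest change with at least 20 CPM in the higher tissue and the highest level with a log2 change of at least 1. Groups, rules and lists were chosen with earlier results of these data known. The 299 and 38 gene sets, the bands of change and the counts of genes high in 1 library were chosen after these tables were examined.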

Additional observations from a re-analysis of the deposited data

How the results depend on the processing

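Calls in R numbered 11537 to 13687 when 1 library was left out. The same-direction share of the 13294 calls kept was 69.5% when a log2 fold of at least 1 was required and 84.6% to 97.4% in the other alternatives, with 0 reversed. Genes detected at 10 CPM differed by -83.7 (exact permutation p = 0.6), and at 1 CPM by 162 to 532 with 1 library left out. Testis-restricted genes numbered 202 to 632 and caput-restricted 249 to 381 with 1 library left out. In NR, all 18 libraries in 1 fit called 10597, a log2 fold of at least 1 3352, and fits without 1 library 1704 to 7828. The interaction had 471 calls with DESeq2, 25 with 18 libraries in 1 fit, 0 to 5771 without 1 library, and 5349 and 5290 with libraries left out together, settings added after seeing the data. TSDBGID.26965 had an adjusted p of 0.0623 without CAPUT-R 1, and the cause was not tested. The replicate block gave 11347, 4736 and 0 calls in R, NR and the interaction. Same-numbered testis and caput libraries of R had deviations correlated at 0.0710, 0.0731 and 0.0585, each the highest for its library. Those of R with different numbers were correlated at -0.0531 to -0.0103. In NR the same-numbered values were -0.0267, 0.188 and 0.271. The numbers were not used as pairs in the main fits because the labels do not say that they mark animals. Whether the libraries are paired was not tested. Low counts limit the size of change that can be shown where 1 tissue is at 0.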

Other observations

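Some genes of the largest changes carried consecutive identifier numbers. Of the 960 genes at least 5 lower in testis, 652 had a tested gene at the next number, and for 17.5% that gene was in the same class, which holds 5.26% of all genes tested. For the 1040 genes at least 5 higher in testis this was 11.8%, in a class of 5.70%. The longest runs had 7 consecutive numbers among genes lower in testis and 5 among genes higher in testis. In the run of 7, means were 0 to 0.414 CPM in TESTIS-R, 2.87 to 771 CPM in CAPUT-R and 0 to 45.3 CPM in CAUDA-R. In a run of 6, means were 0.0336 to 8.69 CPM in TESTIS-R, 21.8 to 3337 CPM in CAPUT-R and 11.2 to 5261 CPM in CAUDA-R, with 2 of the 6 above their CAPUT-R mean in CAUDA-R. Whether identifiers follow genome order, or neighbours share reads, was not tested, and no test of these shares was made.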
